A study of Mus musculus with 12 samples.

Results

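Choroid plexus from mice at 6 months of age (A6m) was compared with choroid plexus from mice on the day of birth (P0), 3 libraries each, across every autosomal gene with at least 1 TPM (transcript abundance corrected for length and scaled to a fixed sum per library) in at least 3 of these 6 libraries. That rule kept 14641 of the 52459 gene symbols in the table, where 44121 symbols lie on autosomes. All animals were of the B6 strain, with no mutation or treatment named for either age. Whole tissue was dissected into Trizol, and libraries from an mRNA kit were sequenced as 100 bp paired ends. The labels describe the specimens as independent and give no sex, ventricle or batch, and p-values measure the spread between the 3 libraries of an age. P14 (postnatal day 14) libraries of the same strain are quoted only as levels, and single figures per gene and age are means ± SD (n = 3).

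The choroid plexus is a folded epithelium over a stroma of fenestrated capillaries, pericytes, fibroblasts and macrophages. Its epithelial cells secrete cerebrospinal fluid, carry hormones and nutrients between blood and fluid, and bear tufts of cilia. They arise from the roof plate under sonic hedgehog and bone morphogenetic signals.

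The tissue label fits the defining transcripts at both ages. Ttr, the thyroid hormone carrier transthyretin, took 13.7%, 13.9% and 14.6% of all TPM at A6m, against 14.3%, 14.1% and 14.1% at P0 (exact two-sided permutation p = 0.8; the smallest possible with 3 against 3 is 0.1). Folr1, the folate receptor, had 1059, 1002 and 972 TPM at A6m, against 1376, 1429.7 and 1438 at P0. Otx2, a transcription factor of the epithelium, had 412, 403 and 387 TPM at A6m, against 556, 574 and 550.1 at P0. None of these 3 genes was called in the same direction on both scales described next.

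Mitochondrially encoded transcripts took 32.6% ± 1.40 of TPM at A6m and 21.2% ± 1.28 at P0 (SD, n = 3 each; exact permutation p = 0.1), which leaves a smaller share for all other genes together at A6m. The comparison was therefore fitted on the TPM as deposited and again after median-of-ratios scaling, where each library is divided by its typical ratio to the others. Size factors were 0.781 to 0.855 at A6m and 1.18 to 1.27 at P0. The median log2 difference over all genes moved by this scaling, and was -0.46 as deposited and 0.04 after it. Below, a gene "rose" or "fell" at A6m when limma's adjusted p was under 0.05 in the same direction on both scales. Differences are A6m minus P0 on log2(TPM + 1), after scaling unless stated.

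Of the 14641 genes, 1795 rose (12.3%) and 4180 fell (28.5%), 40.8% together. As deposited, 73.1% were called, 1795 higher (12.3% of genes and 16.8% of the calls) and 8910 lower (60.9% of genes). After scaling, 62.4% were called, 4954 higher (33.8% of genes and 54.2% of the calls) and 4180 lower (28.5% of genes). The 1795 rises are thus every gene higher as deposited, and the 4180 falls every gene lower after scaling. Scaling removed no rise and the deposited scale no fall, so a call on both scales adds no separate support. The excess of falls over rises depends on this rule. A further 855 genes were called in opposite directions on the 2 scales. At least 2-fold on both scales, 465 genes rose and 1371 fell. The 3 libraries of one age did not overlap those of the other for 77.1% of genes as deposited and 69.1% after scaling. Calls were therefore common, and the counts of each gene group below are read against 12.3% and 28.5%. A gene could pass the filter through the libraries of a single age. Among genes of low TPM this favours calls that are higher at that age.

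**Figure D1:**
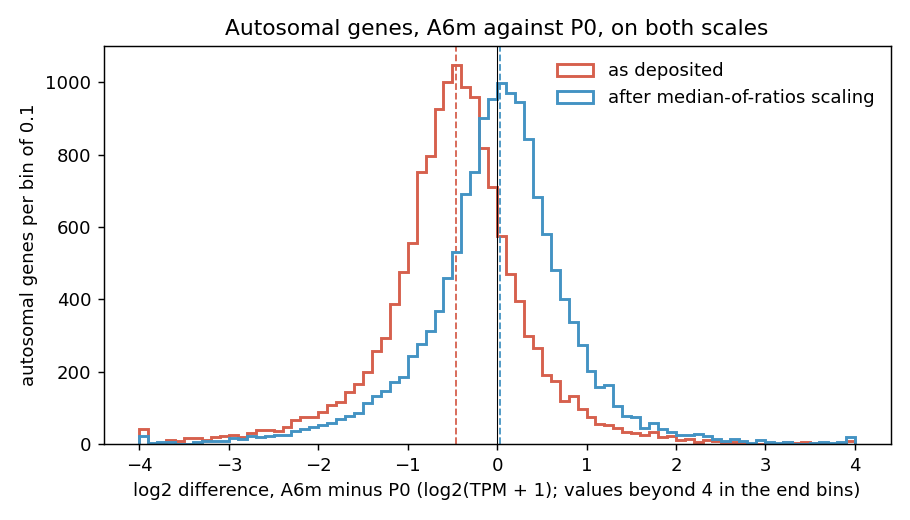
Number of autosomal genes (y axis) in bins of the log2 difference A6m minus P0 (x axis), as deposited and after median-of-ratios scaling, with dashed lines at the medians of -0.46 and 0.04. The whole distribution sits lower as deposited.

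The 3 A6m libraries carried Xist at 148 to 155 TPM with Ddx3y, a Y-linked gene, at 0.122 to 0.366 TPM. The 3 P0 libraries had Xist at 0.43 to 0.689 TPM and Ddx3y at 108 to 117 TPM. The labels give no sex, but this split is that of female libraries at A6m against male libraries at P0. Age and sex therefore cannot be told apart in any result here. In whole tissue, fewer cells of a type and less RNA per cell cannot be told apart either.

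Among named genes the largest rise was that of Prlr, the prolactin receptor. It had 563, 532 and 515 TPM at A6m, against 2.14, 1.38 and 2.46 TPM at P0, a difference of 7.96 ± 0.14 (SE; limma adjusted p = 5.8e-07). The P14 mean was 135 ± 18.4 TPM. Kl, which encodes klotho, a co-receptor of FGF23, had 924, 846 and 827 TPM at A6m, against 49.1, 51.4 and 56 at P0 (4.59 ± 0.07, adjusted p = 4.4e-07). Neither gene's A6m libraries came near those of P0. F5, coagulation factor V, had 327, 321 and 316 TPM at A6m, against 14.1, 12.7 and 13.8 at P0 (5.01 ± 0.07). Enpp2, which encodes autotaxin, the secreted enzyme that makes lysophosphatidic acid, had 30355, 29222 and 27974 TPM at A6m, against 2992, 3207 and 3211 at P0 (3.78 ± 0.11). Autotaxin messages alone took 2.92% ± 0.119 of all TPM at A6m and 0.314% ± 0.0125 at P0.

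Not all large rises were even across libraries. Spink8, a Kazal-type serine protease inhibitor gene, had 31.5, 22.4 and 147 TPM at A6m, against 1.29, 0.587 and 0.169 at P0, with A6m replicate 3 far above the other A6m libraries (5.27 ± 0.66, adjusted p = 0.00054). Inmt, an indolamine N-methyltransferase, had 44.8, 21.9 and 60.0 TPM at A6m, against 0.5, 1.14 and 1.04 at P0. Every A6m library of both genes lay above every P0 library, which the rule that picked these genes required. Ltc4s, leukotriene C4 synthase, was tighter, with 118, 106 and 97.4 TPM at A6m, against 4.8, 5.08 and 4.48 at P0. Ppp2r2c, a regulatory subunit of protein phosphatase 2A, had 40.8, 38.2 and 36.4 TPM at A6m, against 1.9, 1.74 and 1.23 at P0, and its P14 mean was already 42.2 ± 1.43. The noncoding transcript Frmpd1os had 110.3, 128 and 112 TPM at A6m, against 6.78, 6.04 and 11.4 at P0.

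**Figure D2:**
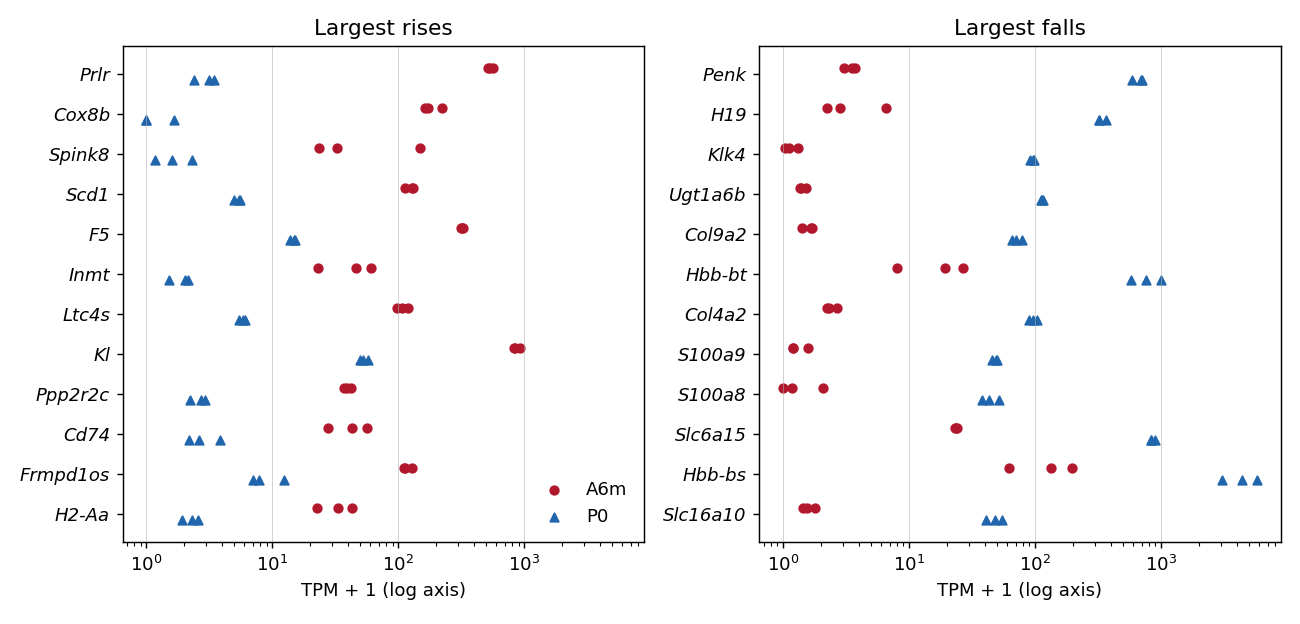
TPM + 1 on a log axis for the 12 largest rises (left) and 12 largest falls (right), 1 point per library, circles for A6m and triangles for P0. No A6m point overlaps a P0 point of the same gene, because only genes without overlap were picked. The A6m points of Spink8 are spread widely, with 1 library far to the right.

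Of 35 tested markers and secreted products of the epithelium, 12 rose and 3 fell (median difference 0.46 after scaling and -0.10 as deposited). Besides those above, the members that rose include Kcnj13, an inward rectifier potassium channel, with 1111, 1114 and 1110.1 TPM at A6m, against 419.6, 366 and 366 at P0, and Trpv4, an osmosensitive cation channel, with 88.2 ± 3.27 TPM at A6m and 44.4 ± 2.99 at P0. The 3 that fell were Aqp1, Lmx1a and Col9a3. Aqp1, the apical water channel, had 177, 173 and 179 TPM at A6m, against 655, 661 and 645 at P0 (-1.32 ± 0.05, adjusted p = 4.2e-06). Another 8 members, such as Kcne2 and Clic6, were lower as deposited and higher after scaling.

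Among 33 genes of ion and water transport, 10 rose and 5 fell, and only 3 fell without A6m replicate 1, A6m replicate 3 or any one P0 library. Of the beta subunit genes of the sodium pump, which drives secretion, Atp1b1 and Atp1b3 rose. Atp1b1 had 1124, 1031 and 1078 TPM at A6m, against 366, 346 and 363 at P0 (2.15 ± 0.06), and Atp1b3 245 ± 7.46 TPM at A6m and 160.2 ± 3.32 at P0. Atp1b2 fell, with 92.6 ± 5.02 TPM at A6m and 156 ± 7.09 at P0, a call that was kept only in the fit without A6m replicate 2 among the 6 that leave out a library. Car2, a cytosolic carbonic anhydrase, rose, with 540.2 ± 19.2 TPM at A6m and 403 ± 10.6 at P0.

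Solute transporters moved in both directions, 14 of 44 up and 17 down. Slco1c1, a thyroid hormone transporter, had 357, 391 and 371 TPM at A6m, against 83.2, 88 and 91.5 at P0 (2.64 ± 0.08), and the zinc importer Slc39a4 had 35.1 ± 0.712 TPM at A6m and 5.68 ± 0.631 at P0. The falls include carriers of amino acids. Slc6a15, a neutral amino acid transporter, had 22.7, 22.8 and 22.3 TPM at A6m, against 885, 826 and 828 at P0 (-4.61 ± 0.07, adjusted p = 4.1e-07). Slc7a1, Slc7a5, Slc7a6, Slc7a8, Slc7a11 and Slc43a2 fell too, with Slc7a5 at 4.74 ± 0.458 TPM at A6m and 21.9 ± 3.58 at P0. Slc16a10, an aromatic amino acid transporter, had 0.585 ± 0.183 TPM at A6m and 46.9 ± 6.82 at P0.

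Of 28 hormone and neurotransmitter receptor genes, 11 rose and 11 fell. Mc3r, a melanocortin receptor, had 6.08, 5.04 and 7.4 TPM at A6m, against 0.237, 0.315 and 0.312 at P0, and Npr1 and Npr3, receptors of natriuretic peptides, had 25.7 ± 3.5 and 68.3 ± 2.31 TPM at A6m and 11 ± 1.79 and 38.7 ± 1.56 at P0. The thyroid hormone receptor genes went opposite ways. Thrb had 13.7 ± 1.44 TPM at A6m and 8.49 ± 0.568 at P0, and Thra 29.2 ± 3.28 at A6m and 63.3 ± 3.14 at P0. Igf1r and Insr, the receptors of IGF1 and insulin, fell, with 17 ± 0.931 and 15.4 ± 0.89 TPM at A6m and 37.8 ± 2.4 and 30.8 ± 2.89 at P0. Ednrb, an endothelin receptor, had 32.9 ± 1.11 TPM at A6m and 207 ± 10.1 at P0.

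Of 30 junction genes, 5 rose and 14 fell. Cldn1, a barrier claudin, had 109 ± 1.51 TPM at A6m and 446 ± 18.8 at P0, and Ocln, which encodes occludin, 71.9 ± 1.47 at A6m and 179 ± 11.9 at P0. The members that rose were Tjp3, Marveld3, Cgn, Cgnl1 and Cdh1, led by Marveld3 at 10.2 ± 0.198 TPM at A6m and 3.85 ± 0.837 at P0. Cdh5, Esam and Cldn5, which mark endothelium, are among those that fell.

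Among named genes the largest fall was that of Penk, the precursor of the opioid enkephalins. It had 2.04, 2.69 and 2.5 TPM at A6m, against 588, 688 and 703 TPM at P0 (-7.11 ± 0.12, adjusted p = 4.4e-07), and 8.67 ± 1.83 at P14. Klk4, a kallikrein-related serine protease, had 0.0404, 0.301 and 0.118 TPM at A6m, against 89.2, 95.7 and 97.4 at P0. Ugt1a6b, one of several glucuronosyltransferase transcripts that share exons, had 0.509, 0.381 and 0.355 TPM at A6m, against 110.0, 114 and 112 at P0, and how kallisto divides reads within that cluster was not tested. Col9a2, a collagen IX chain, had 0.701, 0.421 and 0.654 TPM at A6m, against 64.3, 78.3 and 69.7 at P0.

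Genes of the roof plate and of patterning fell in 17 of 31 cases (54.8%, against 28.5% of all genes), with 1 riser, Bmp6. Shh, the ligand, had 0.0679, 0.131 and 0.102 TPM at A6m, against 5.54, 5.92 and 6.14 at P0 (-2.37 ± 0.11, adjusted p = 7.6e-06). Its pathway genes Gli2, Gli3 and Smo also fell, with Gli2 at 0.157 ± 0.0264 TPM at A6m and 3.85 ± 0.199 at P0. The zinc-finger factor Zic4 had 20.5, 19.8 and 21.9 TPM at A6m, against 67.2, 73.4 and 66.2 at P0. Of 13 listed Hox genes, 5 passed the filter and 4 fell, all at low level. Hoxb3, with 0.542 ± 0.0203 TPM at A6m and 3.78 ± 0.681 at P0, passed it through P0 alone, as did Shh, which favours a fall.

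Genes that build the multiciliated state fell, 16 of 24, with a single rise, Ankrd45. They include regulators of cell fate and of centriole amplification. Mcidas had 0.0606, 0 and 0.0953 TPM at A6m, against 4.4, 3.59 and 3.56 at P0, and Ccno, a cyclin of deuterosome formation, 0.0741, 0.213 and 0.222 at A6m, against 5.01, 4.26 and 4.81 at P0. Deup1, the deuterosome scaffold, had 0.714, 0.787 and 1.01 TPM at A6m, against 15.6, 14.5 and 14.8 at P0, and Cdc20b, of the same step, 0.0644, 0.0324 and 0.881 at A6m, against 36.3, 35.5 and 26.6 at P0. Gmnc, which acts upstream of Mcidas, also fell, with 36.5, 37.6 and 38 TPM at A6m, against 88.5, 97.7 and 91 at P0 (-0.73 ± 0.06). Mcidas, Ccno and Cdc20b passed the filter through the P0 libraries alone, which favours falls in the count of 16 of 24. Genes of the finished cilium fell in part. Of 60 axoneme genes, 26 fell (43.3%, against 28.5% of all genes) and 6 rose (10%, against 12.3%). The falls include Ccdc40, with 2.3 ± 0.566 TPM at A6m and 34.1 ± 1.92 at P0. Dnaic1, a dynein intermediate chain, rose, with 13.1 ± 0.862 and 6.27 ± 0.872 in the same order. None of 14 dynein assembly factors rose or fell, and 1 fell without P0 replicate 2 (median difference 0.10 after scaling and -0.44 as deposited). Of 38 genes of intraflagellar transport and the BBSome, 8 fell (21.1%, against 28.5% of all genes) and 2 rose (5.26%). Their median difference was 0.18 after scaling and -0.35 as deposited. GTTGCC, one side of the X-box of RFX factors, occurs in the promoter window of 19 of 51 matched axoneme genes (37.3%), against 14.1% of 27025 genes. For this and later motifs, those 27025 are all genes with a window, tested here or not, while list members had passed the filter.

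Cell division genes fell. Of 50 tested, 41 fell and none rose (median difference -1.22 after scaling and -1.53 as deposited). Top2a, topoisomerase II alpha, had 0.343, 0.156 and 0.879 TPM at A6m, against 16, 13.7 and 13.2 at P0 (-3.07 ± 0.21, adjusted p = 3.7e-05). Mki67, the proliferation antigen, had 0.162, 0.374 and 0.401 TPM at A6m, against 7.44, 7.17 and 7.45 at P0. Both were low at P0 already, and their P14 means were 3.21 ± 0.535 and 1.58 ± 0.251 TPM. Both passed the filter through the P0 libraries alone, which favours falls in the count of this list. The summed level of the list was 135 to 157 TPM at A6m and 459 to 488 at P0. Of 20 genes for D cyclins and inhibitors of cyclin kinases, 12 fell, on both sides of the balance. Ccnd1 had 5.65 ± 1.76 TPM at A6m and 37.9 ± 2.54 at P0, and the inhibitor Cdkn1a 8.39 ± 0.633 at A6m and 53.3 ± 5.85 at P0.

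The promoters of Top2a and Mki67 (RefSeq, GRCm38.p6, 250 bases before to 50 after the gene start) are shown because 2 elements are frequent in the promoters of division genes. Capitals mark TTTGAA, the core of the cell cycle homology region, and CCAAT, on either strand. TTTGAA occurs in 21 of 42 matched division genes (50%), against 20.2% of 27025 genes, and CCAAT in 30 of 42 (71.4%), against 41.1%. The Top2a window is chr11:99024140-99024439 and the Mki67 window chr7:135716330-135716629, both on the minus strand and printed 5′ to 3′ of the gene.
Top2a: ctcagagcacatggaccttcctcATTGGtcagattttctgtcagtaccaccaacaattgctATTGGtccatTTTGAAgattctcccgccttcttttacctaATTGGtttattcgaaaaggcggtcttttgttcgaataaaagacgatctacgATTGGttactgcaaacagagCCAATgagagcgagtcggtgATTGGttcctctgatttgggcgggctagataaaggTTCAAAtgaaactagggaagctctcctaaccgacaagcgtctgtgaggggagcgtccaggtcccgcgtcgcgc
Mki67: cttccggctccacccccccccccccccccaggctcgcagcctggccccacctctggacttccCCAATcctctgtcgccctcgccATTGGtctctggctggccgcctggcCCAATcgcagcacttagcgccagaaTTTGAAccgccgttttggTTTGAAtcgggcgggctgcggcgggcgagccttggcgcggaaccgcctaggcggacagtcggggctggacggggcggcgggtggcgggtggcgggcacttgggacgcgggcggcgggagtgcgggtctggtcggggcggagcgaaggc

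Imprinted and oncofetal growth genes fell without a single rise, 17 of 25 and 11 of 12. H19, the imprinted noncoding RNA beside Igf2, had 1.24, 1.83 and 5.61 TPM at A6m, against 320.3, 319 and 363 at P0 (-6.11 ± 0.39, adjusted p = 2.9e-05). Igf2 itself did not pass on both scales, with 915, 828 and 842 TPM at A6m, against 1263, 1210.2 and 1319 at P0 (0.01 after scaling and -0.55 as deposited). Meg3 and Rian, noncoding RNAs of one imprinted cluster, had 23.1 ± 5.61 and 30.0 ± 3.82 TPM at A6m and 363 ± 68.5 and 314 ± 16.4 at P0. Plagl1, a transcription factor of this network, had 58.2 ± 2.29 TPM at A6m and 238 ± 14 at P0. Igf2bp2 and Igf2bp3, fetal RNA-binding proteins, had 0.564 ± 0.0734 and 0.12 ± 0.114 TPM at A6m and 18.4 ± 1.23 and 12.4 ± 1.14 at P0. Both passed the filter through the P0 libraries alone, which favours falls in the oncofetal count. Igf1 had 1.8, 2.05 and 2.32 TPM at A6m, against 28.2, 28.7 and 28.9 at P0, while its P14 mean was 26.5 ± 1.23.

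Of 31 chromatin genes, 20 fell and 3 rose, and 1 rose without A6m replicate 1. Dnmt3a, a de novo DNA methyltransferase, had 9.17, 9.11 and 8.14 TPM at A6m, against 39.1, 41.3 and 41.7 at P0. Ezh2, the Polycomb methyltransferase, had 4.24 ± 1.04 TPM at A6m and 19.3 ± 2.15 at P0. Polycomb chromobox genes diverged, Cbx7 rising with 14.4 ± 2.05 TPM at A6m and 5.89 ± 0.608 at P0, and Cbx2 falling with 0.431 ± 0.0162 and 3.15 ± 0.278 in the same order. Hmgb2 and Hmgn2, architectural chromatin proteins, had 3.02 ± 0.794 and 59.1 ± 7.78 TPM at A6m and 30.1 ± 5.41 and 281 ± 14.3 at P0. Of 35 splicing genes, 14 fell and none rose.

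Stromal genes fell broadly. Of 32 genes of fibrillar collagens and their processing, 27 fell and 3 rose (median difference -1.62 after scaling and -2.04 as deposited). Col3a1 had 3.96, 2.05 and 3.26 TPM at A6m, against 110.4, 109 and 121 at P0 (-4.34 ± 0.17, adjusted p = 4.7e-06), and Col1a1 1.36, 0.826 and 1.81 at A6m, against 40.5, 30.2 and 37.4 at P0. The risers were Loxl3, Pcolce and P3h2, with Pcolce, an enhancer of procollagen cleavage, at 182 ± 12.4 TPM at A6m and 71.1 ± 1.72 at P0. Of 24 basement membrane genes, 18 fell and 1, Lamb1, rose. Col4a1 and Col4a2, the paired collagen IV chains, had 1.91 ± 0.542 and 1.4 ± 0.247 TPM at A6m and 82.4 ± 11.8 and 94.9 ± 6.94 at P0. Of 34 fibroblast markers, 25 fell, and Pdgfra had 23.1, 18.1 and 21.5 TPM at A6m, against 126, 124 and 124 at P0.

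Of 29 endothelial markers, 28 fell and none rose (median difference -1.82 after scaling and -2.26 as deposited). Their summed level was 51.8 to 84.2 TPM at A6m, against 438 to 584 TPM at P0. Cdh5, the endothelial cadherin, had 2.98, 1.94 and 3.1 TPM at A6m, against 37.7, 41.1 and 35.2 at P0 (-2.94 ± 0.12, adjusted p = 6.3e-06). Plvap, which forms the diaphragms of fenestrae, had 2.68 ± 0.889 TPM at A6m and 19.9 ± 3.72 at P0. Of 16 mural cell markers, 12 fell, such as Pdgfrb, with 2.54 ± 0.631 TPM at A6m and 21.9 ± 1.84 at P0, and 1, Vtn, rose. Of 12 vessel growth factor genes, 5 fell, such as Vegfc, Pgf and Angptl4, and 1, Pdgfd, rose. Fibroblast, endothelial and mural markers fell together with collagen, basement membrane and angiogenic genes, and the part of these cell types in those falls was not tested.

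**Figure D3:**
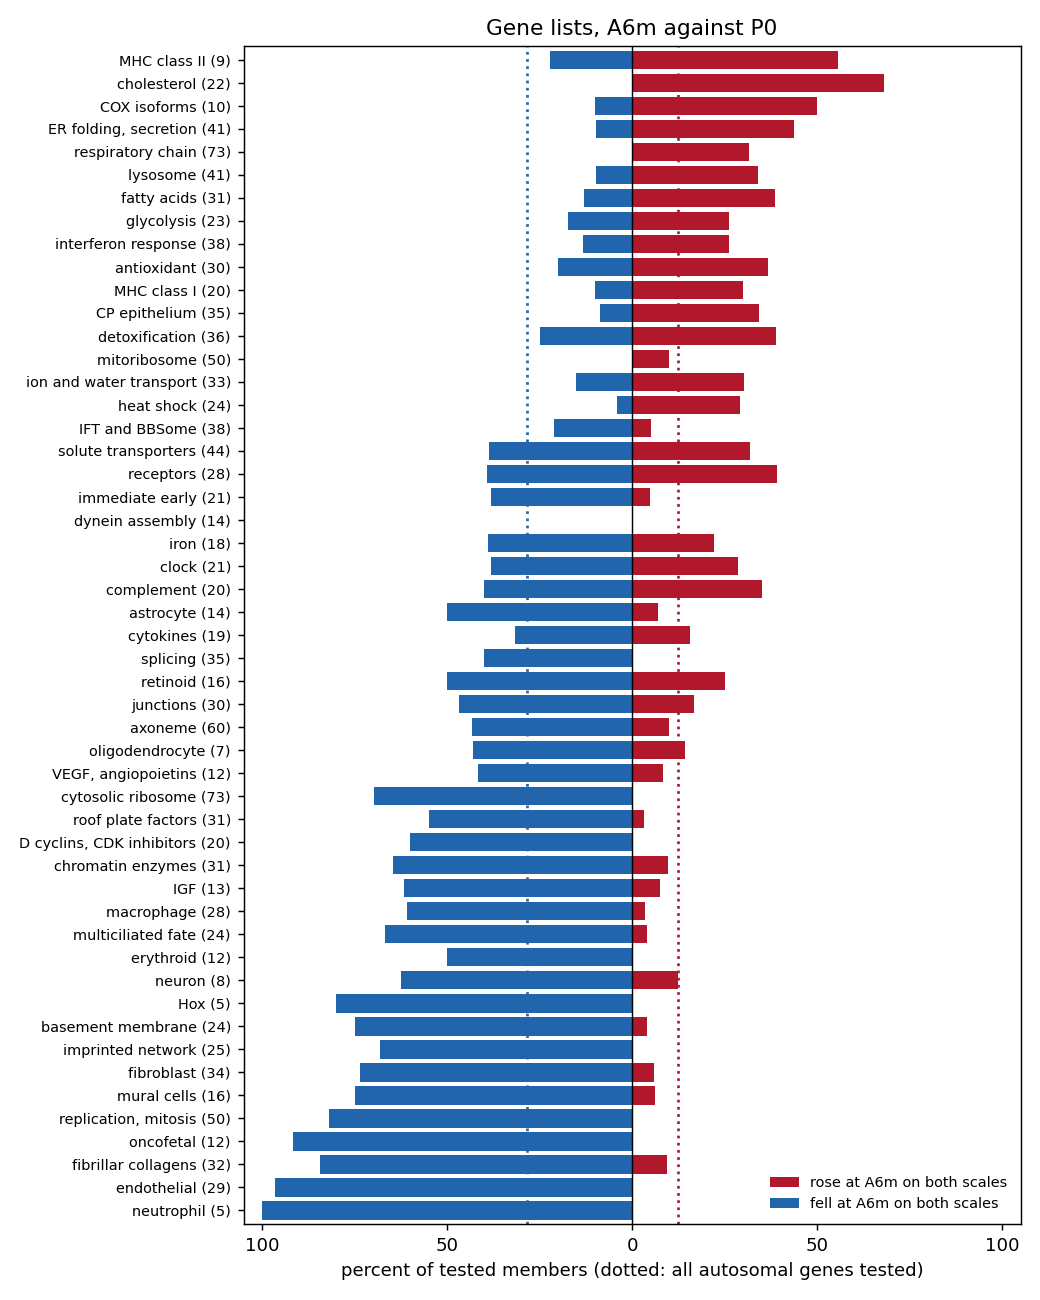
Percent of the tested members of each gene list that rose (right, red) or fell (left, blue) at A6m on both scales, with the number tested in brackets and dotted lines at 12.3% and 28.5%, the shares over all genes. Endothelial, collagen, oncofetal and division lists lie far left of the line, and MHC class II and cholesterol lists far right of it.

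Neutrophil and globin transcripts fell. S100a8, an alarmin of neutrophils, had 1.09, 0 and 0.18 TPM at A6m, against 36.5, 50.8 and 41.9 at P0, and its partner S100a9 had 0.189, 0.208 and 0.563 at A6m, against 47.9, 48.6 and 44.2 at P0. Of 20 listed neutrophil genes, 5 passed the filter of 1 TPM, and all 5 fell. Retnlg was listed at 0 in all A6m libraries, against 5.16, 7.03 and 6.15 TPM at P0. Like S100a9, it passed the filter through the P0 libraries alone, so the filter itself favoured falls in that count. At P14 a single library carried most of the S100a9, with values of 2, 3.34 and 39.2 TPM. Globins took 0.0347% ± 0.0208 of TPM at A6m and 1.02% ± 0.342 at P0. Hbb-bs had 132, 61.2 and 195 TPM at A6m, against 4358, 5737 and 3049.6 at P0, and its close copy Hbb-bt, with which reads may be shared, had 18.3, 7.06 and 25.9 at A6m, against 753, 1000.5 and 573 at P0. Of 12 erythroid genes, 6 fell and none rose.

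Macrophage markers fell in 17 of 28 cases, with 1 riser, Lyz2, which no longer passed without P0 replicate 1 or P0 replicate 3. Mrc1, the mannose receptor of border macrophages, had 1.04, 0.815 and 1.79 TPM at A6m, against 13.3, 19.8 and 14.3 at P0 (-2.51 ± 0.20). F13a1 and Pf4, of the same cells, had 0.306 ± 0.163 and 1.4 ± 0.607 TPM at A6m and 14.3 ± 0.48 and 25.6 ± 3.63 at P0. The complement initiators C1qa, C1qb and C1qc, made by macrophages, had 7.98 ± 2.49, 7.44 ± 2.15 and 5.14 ± 1.71 TPM at A6m and 22.5 ± 2.05, 22.1 ± 3.89 and 21.2 ± 2.05 at P0.

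Class II antigen presentation genes went the other way. H2-Aa, an alpha chain of the class II molecule, had 32, 21.5 and 41.5 TPM at A6m, against 1.3, 1.58 and 0.909 at P0 (4.24 ± 0.21, adjusted p = 1.2e-05). Cd74, the invariant chain that guides class II molecules, had 41.7, 26.7 and 55.4 TPM at A6m, against 1.2, 2.81 and 1.63 at P0 (4.31 ± 0.27). H2-Eb1 and H2-Ab1 had 19.4 ± 6.45 and 14.1 ± 5.03 TPM at A6m and 1.31 ± 0.235 and 1.62 ± 0.571 at P0. A6m replicate 2 was lowest and A6m replicate 3 highest for each of these genes. All 4 stayed low at P14, with means of 0.636 ± 0.104 TPM for H2-Aa and 2.4 ± 0.442 for Cd74. Of 9 class II genes tested, 5 rose, the last being the peptide loader H2-DMb1. The falls were Ifi30 and Cd86, and 1 of them fell without any one library other than A6m replicate 3. The 28 macrophage markers summed to 116 to 181 TPM at A6m and 305 to 369 at P0. Of 27 lymphocyte markers, 3 passed the filter of 1 TPM, and these went different ways. Igkc, the immunoglobulin kappa constant segment of B lineage cells, rose, with 10.4 ± 0.413 TPM at A6m and 2.6 ± 0.519 at P0, and 9.62 ± 1.9 at P14. Lck, a kinase of T cell receptor signalling, fell, with 0.5 ± 0.177 TPM at A6m and 4.86 ± 0.63 at P0, and Ighm, the IgM heavy chain, was not called on both scales. The B cell markers Cd79a and Ms4a1 did not pass the filter. The part of B lineage cells in the class II result was not tested.

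The promoters of H2-Aa and H2-Eb1 carry GATTGG, the Y box core of class II promoters, which contains CCAAT on its other strand. It occurs in 4 of 6 matched class II genes (66.7%), against 18.2% of 27025 genes, and was searched after the values were seen. The windows are chr17:34287774-34288073 on the minus strand and chr17:34305617-34305916 on the plus strand (RefSeq, GRCm38.p6), and capitals mark the motif on either strand.
H2-Aa: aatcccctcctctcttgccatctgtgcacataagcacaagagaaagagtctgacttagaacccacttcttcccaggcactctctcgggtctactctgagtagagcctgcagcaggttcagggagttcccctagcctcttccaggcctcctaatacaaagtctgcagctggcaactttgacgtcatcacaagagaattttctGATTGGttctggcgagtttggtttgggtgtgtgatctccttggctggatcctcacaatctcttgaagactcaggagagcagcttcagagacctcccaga
H2-Eb1: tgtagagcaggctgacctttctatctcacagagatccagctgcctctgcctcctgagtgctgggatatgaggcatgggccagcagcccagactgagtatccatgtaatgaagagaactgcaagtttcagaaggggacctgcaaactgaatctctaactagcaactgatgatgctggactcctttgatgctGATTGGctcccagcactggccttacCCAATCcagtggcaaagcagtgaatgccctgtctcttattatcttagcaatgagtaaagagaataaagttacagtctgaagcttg

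Of 38 interferon-stimulated genes, 10 rose (26.3%, against 12.3% of all genes) and 5 fell (13.2%, against 28.5%). Ifi27 had 612, 509 and 569 TPM at A6m, against 46.1, 51.5 and 55.6 at P0 (4.00 ± 0.08, adjusted p = 5.8e-07), and a P14 mean of 219 ± 31.6, between both. Bst2, the virus-tethering protein tetherin, had 238, 184 and 186 TPM at A6m, against 62.7, 53.1 and 52.7 at P0 (2.39 ± 0.11), and a P14 mean of 42 ± 3.09. Irgm1, a GTPase of cell-autonomous immunity, had 36.9, 26.1 and 24.7 TPM at A6m, against 13.6, 10.5 and 7.99 at P0. The falls include Rsad2, which encodes the antiviral enzyme viperin, with 2.33 ± 0.662 TPM at A6m and 11.6 ± 1.69 at P0. Of 20 class I genes, 6 rose, among them the peptide transporter Tap2, with 17, 12.6 and 15 TPM at A6m, against 7.17, 9.13 and 6.75 at P0. One of the 6, Calr, kept its call in only 2 of the 6 fits that leave out a library.

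The Bst2 promoter is shown for its pair of overlapping matches, in capitals, to the core of the interferon-stimulated response element (GAAA, any 2 bases, GAAA, on either strand). That core occurs in 18 of 28 matched interferon genes (64.3%), against 3.99% of 27025 genes. The window is chr8:71537423-71537722 on the minus strand (RefSeq, GRCm38.p6).
Bst2: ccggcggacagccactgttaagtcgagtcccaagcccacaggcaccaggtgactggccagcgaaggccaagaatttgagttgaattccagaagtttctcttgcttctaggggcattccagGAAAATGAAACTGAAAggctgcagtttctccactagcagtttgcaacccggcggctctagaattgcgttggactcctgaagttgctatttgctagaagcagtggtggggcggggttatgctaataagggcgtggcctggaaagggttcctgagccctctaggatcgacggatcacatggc

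Complement genes moved in both directions. C1qa, C1qb, C1qc, C3ar1 and C5ar1 were among 8 of 20 that fell, and 7 rose. The risers include the regulators Cd59a, with 189.6, 188 and 191 TPM at A6m, against 42.1, 41.9 and 39.7 at P0, and Clu, which encodes clusterin, with 2086 ± 33.1 TPM at A6m and 1093 ± 43.2 at P0.

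**Figure D4:**
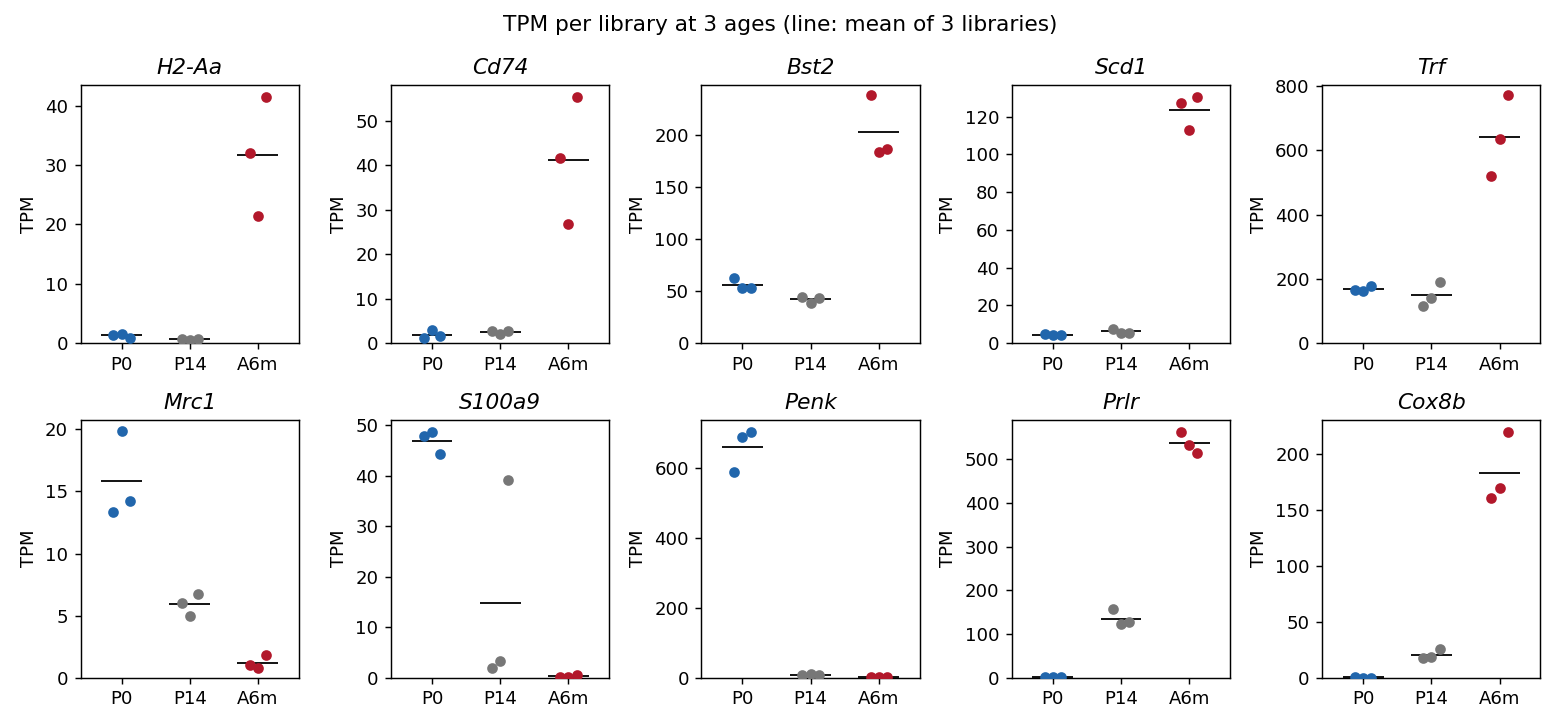
TPM per library (y axis, linear from 0) at P0, P14 and A6m for 10 genes, with a line at the mean of 3 libraries. H2-Aa, Cd74, Bst2, Scd1 and Trf are lower at P0 and P14 than at A6m, the P14 values of Prlr, Cox8b and Mrc1 lie between those of P0 and A6m, and Penk is already low at P14.

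Nuclear genes of the respiratory chain rose in part. Of 73 tested, 23 rose and none fell (median difference 0.60 after scaling and 0.04 as deposited), and 13 rose without A6m replicate 3, P0 replicate 2 or P0 replicate 3. Atp5g1, a c-ring gene of ATP synthase, had 503, 438 and 507 TPM at A6m, against 306, 294 and 318 at P0. Cycs, cytochrome c, had 53.7, 51.7 and 48.8 TPM at A6m, against 35, 29.6 and 32.8 at P0. The subunit VIII isoforms of cytochrome oxidase differed. Cox8b, the heart and muscle form, had 161, 170.1 and 220.2 TPM at A6m, against 0.668, 0 and 0 at P0, where 2 libraries list it at 0. The P14 mean was 20.3 ± 4.33. Cox8a, the general form, had 578, 549 and 648 TPM at A6m, against 585, 587 and 604 at P0, and was called only after scaling. Cox7a1, another muscle isoform, had 37.1 ± 0.873 TPM at A6m and 15 ± 3.17 at P0, and Cox4i2, an isoform of subunit IV, fell, with 0.576 ± 0.158 and 4.74 ± 0.911 in the same order. Of 50 mitochondrial ribosomal protein genes, 5 rose and none fell, while 3 rose and 1 fell without A6m replicate 3.

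Cytosolic ribosomal protein genes fell in 51 of 73 cases and rose in none, or 1 without P0 replicate 2 (median difference -0.30 after scaling and -0.86 as deposited). Together, cytosolic ribosomal proteins took 2.60% ± 0.123 of TPM at A6m and 4.63% ± 0.203 at P0 (exact permutation p = 0.1). Rpl32 had 404, 415 and 436 TPM at A6m, against 979, 980.4 and 935 at P0, and Rps18 264, 249.8 and 275 at A6m, against 624, 618 and 588 at P0. Rps27 was listed at 8.99 TPM in P0 replicate 3, against 2117 and 2105 in the other P0 libraries.

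Genes of the secretory pathway rose in part, 18 of 41, with 4 falls. Hspa5, the chaperone BiP, had 769.6 ± 195 TPM at A6m and 426 ± 18.7 at P0. Sdf2l1, an ER chaperone cofactor, had 56.2, 64.1 and 43.4 TPM at A6m, against 19.9, 17.1 and 18.8 at P0, and Manf, a secreted ER stress protein, 414, 488 and 305 at A6m, against 215, 198 and 203 at P0. A6m replicate 3 was lowest for both. The 4 falls were Sec61a1, Ssr2, Ssr3 and Ddost, which belong to the translocon and oligosaccharyl transferase, with Ssr2 at 28 ± 2.88 TPM at A6m and 117 ± 5.77 at P0. Of 24 heat shock genes, 7 rose and 1 fell, and Cryab, a small heat shock protein, had 259, 246 and 246 TPM at A6m, against a mean of 102 ± 5.27 at P0.

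Of 41 lysosome genes, 14 rose and 4 fell. Of the 14, 9 encode subunits of the proton-pumping V-ATPase, such as Atp6v1a, with 172, 173 and 177 TPM at A6m, against 90.6, 90.5 and 88.2 at P0. Psap, the saposin precursor, had 1623, 1476 and 1534 TPM at A6m, against 688, 751 and 725 at P0. The 4 falls were Ctsh, Ctsl, Glb1 and Grn. CACGTG, the core shared by lysosomal and E-box elements, occurs in 13 of 30 matched lysosome promoters (43.3%), against 8.09% of 27025 genes.

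Cholesterol synthesis genes rose, 15 of 22 with no fall (median difference 0.99 after scaling and 0.47 as deposited). Idi1, of isoprenoid synthesis, had 37.6, 33.9 and 38.1 TPM at A6m, against 13, 13.6 and 13.7 at P0. Fdps and Msmo1 had 57 ± 2.31 and 75.4 ± 7.82 TPM at A6m and 26.1 ± 1.02 and 32.1 ± 2.13 at P0. In fatty acid metabolism 12 of 31 rose and 4 fell. Scd1, the stearoyl-CoA desaturase, had 127, 113 and 131 TPM at A6m, against 4.54, 3.95 and 4.42 at P0 (5.06 ± 0.08, adjusted p = 4.4e-07), and 6.16 ± 1.21 at P14. The desaturase Fads1 had 163, 144 and 165 TPM at A6m, against 49.7, 42.6 and 46.9 at P0. Fabp7, a fatty acid binding protein of glial progenitors, fell, with 1.66, 2.96 and 2.14 TPM at A6m, against 73.5, 18.7 and 28 at P0, where P0 replicate 1 was far above the others. TCACNCCAC, a sterol element core searched after the values were seen, is in 1 of 15 matched cholesterol promoters (6.67%), against 1.44% of all. The gene with it is Hmgcs1, and 0 of the 11 matched genes that rose hold it.

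**Figure D5:**
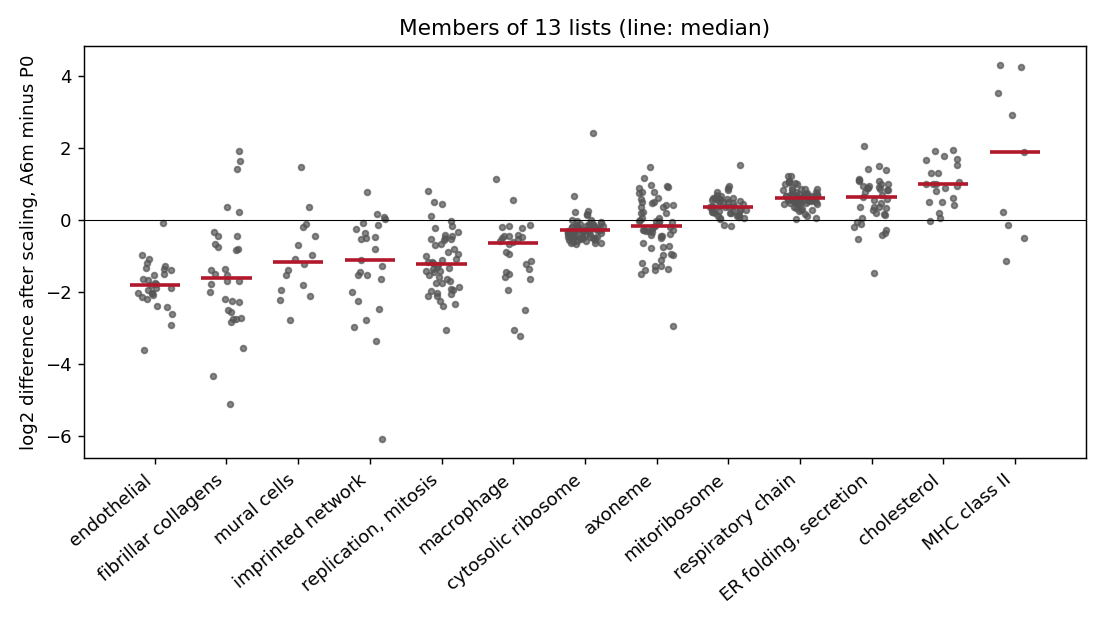
Log2 difference A6m minus P0 after scaling (y axis) for each tested member of 13 gene lists, 1 point per gene, with a red line at the median. Medians run from -1.82 for endothelial markers to 1.89 for MHC class II genes.

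Glycolysis genes rose in 6 of 23 cases and fell in 4. Pfkp and Pfkm, phosphofructokinase isoforms, had 170.4 ± 6.63 and 58.1 ± 2.62 TPM at A6m and 81.2 ± 4.78 and 36.3 ± 1.62 at P0. The glucose transporter genes Slc2a1 and Slc2a4 fell, Slc2a1 with 32.2 ± 1.94 TPM at A6m and 64.7 ± 4.54 at P0, and Slc2a4 with 1.11 ± 0.455 and 14.3 ± 1.55 in the same order. Of 30 antioxidant genes, 11 rose and 6 fell. Sod3, the extracellular superoxide dismutase, had 71.4, 62.3 and 83.1 TPM at A6m, against 13.2, 12.7 and 12.8 at P0. The metallothioneins split by isoform, Mt3 rising with 424 ± 8.55 TPM at A6m and 305 ± 18.1 at P0, and Mt1 and Mt2 falling with 71.1 ± 10.5 and 24.6 ± 0.93 at A6m and 135 ± 5.92 and 63.6 ± 0.926 at P0. Of 36 detoxification genes, 14 rose and 9 fell. Sult1c2, a sulfotransferase, had 18, 15.3 and 15.8 TPM at A6m, against 0.699, 1.29 and 1.54 at P0, and Fmo1, a flavin monooxygenase, 5.13, 2.59 and 4.88 at A6m, against 49.1, 61.4 and 42.8 at P0.

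Iron handling shifted between its members, with 4 of 18 up and 7 down. Trf, the iron carrier transferrin, had 519, 636 and 771 TPM at A6m, against 164, 161 and 177 at P0 (2.48 ± 0.15), and 149 ± 38.3 at P14. The STEAP family genes Steap1 and Steap2 had 209.7 ± 3.17 and 201 ± 12.3 TPM at A6m and 81.9 ± 9.5 and 57.8 ± 5.04 at P0. The iron exporter gene Slc40a1 had 0.448, 0.184 and 0.529 TPM at A6m, against 11.1, 11.3 and 9.61 at P0. The ferritin chains parted, Fth1 rising with 1548 ± 70.6 TPM at A6m and 1129.6 ± 23.5 at P0, and Ftl1 falling with 553 ± 34.8 and 1228 ± 67.2 in the same order. Retinoid genes divided too, 4 of 16 up and 8 down. Rdh5, a retinol dehydrogenase, had 268, 238 and 299 TPM at A6m, against 67, 73.2 and 68.5 at P0, and Aldh1a2, which makes retinoic acid, 2.03, 1.63 and 1.25 at A6m, against 19.5, 12.6 and 28.9 at P0.

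Of 21 clock genes, 6 rose and 8 fell, and 4 fell without A6m replicate 2 or P0 replicate 3. Dbp, an output gene, had 63, 45.5 and 61.4 TPM at A6m, against 21.5, 17.8 and 17.4 at P0, while Arntl, which encodes BMAL1, had 2.75 ± 0.0691 TPM at A6m and 13.7 ± 1.26 at P0. The labels give no time of day, so age and time of sampling cannot be told apart. Of 21 immediate early genes, 8 fell and 1, Nr4a1, rose, and 2 rose without A6m replicate 2. Egr1 had 1.09 ± 0.339 TPM at A6m and 2.98 ± 0.342 at P0.

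Markers of neurons and glia were also counted. Of 8 neuronal markers, 5 fell and Snap25, a synaptic protein, rose, with 6.05, 6.35 and 7.38 TPM at A6m, against 2.23, 0.818 and 1.1 at P0. Of 7 markers of oligodendrocytes and their precursors, 3 fell and 1 rose. Cldn11, a claudin of myelin that is also counted among the junction genes above, fell, with 8.08 ± 0.972 TPM at A6m and 44.7 ± 3.28 at P0. Pdgfra, a growth factor receptor of the precursors that fibroblasts also express, fell too, with 20.9 ± 2.58 TPM at A6m and 125 ± 0.787 at P0. Mbp, myelin basic protein, was the riser, with 19, 15.4 and 18.1 TPM at A6m, against 8.54, 9.09 and 9.02 at P0. Of 14 astrocyte markers 7 fell, such as Gja1, connexin 43, with 4.46, 3.73 and 5.68 TPM at A6m, against 84.5, 77.4 and 82.1 at P0. Aldh1l1, the single astrocyte marker that rose, had 48.5 ± 2.78 TPM at A6m and 17.4 ± 1.7 at P0, and 2 to 3 rose without P0 replicate 3 or P0 replicate 1. The part of such cells in the results above was not tested.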

How the data were processed

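Deposited values are TPM per gene symbol, which the authors computed with kallisto on GRCm38, per the submitters' processing notes, with no version, annotation release or transcript-to-gene step given in the sources used here. TPM holds no read numbers, so the sequencing depth is unknown and counting intervals were not computed. Another 7 columns of the table were not used. Symbols were placed by GENCODE M21, or by RefSeq for 233, while 4118 were placed by neither.

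Genes of any chromosome with at least 1 TPM in at least 3 of the 6 libraries (15506) were fitted as log2(TPM + 1) with limma 3.58.1 in R 4.3.3 (lmFit, eBayes with trend, 4 residual degrees of freedom), and p was adjusted by Benjamini-Hochberg over all of them. The second fit divided TPM by median-of-ratios size factors from 20307 genes above 0 in all 6 libraries. Fits were tested on simulated data. Gene lists are described by counts and medians, with no test. The members, lists and tests were chosen with earlier results of these data known. Named genes are the 12 largest rises and 12 largest falls that reached a mean of 20 TPM at either age without overlap between ages, up to 4 changed members per list, and fixed genes. Some genes that this rule picks are not reported here. Other list members named here were chosen after their values were seen. Motifs were searched on both strands of RefSeq promoter windows, and 85 genes share all 6 values with another symbol. Alternatives were other pseudocounts, filters, scalings, weights, a replicate block, all 12 libraries, a 1.5-fold threshold, and each library left out. List counts without each library were added after the data were seen. Python 3.11.15 with matplotlib 3.10.9 drew the figures.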

Additional observations from a re-analysis of the deposited data

How the results depend on the processing

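Leaving out each library in turn gave 10018 to 10275 calls as deposited (1566 to 1751 higher and 8267 to 8645 lower), 8238 to 8496 after scaling (4536 to 4685 higher and 3654 to 3860 lower), and 5272 to 5598 on both scales (1566 to 1751 rose and 3654 to 3860 fell). Of the genes that rose and fell, 1465 and 3365 kept their call in all 6 such fits. The specimens are described as independent, so replicate numbers were not treated as pairs. Deviations of same-numbered libraries correlated at -0.0616, -0.114 and -0.00783, against -0.0744 to 0.131 for the other pairings. With 3 libraries per age these values cannot decide whether same-numbered libraries share a batch. With the replicate number as a block, 10098 genes were called as deposited, 8419 after scaling, and 1648 rose and 3816 fell on both scales. With a mean of at least 5 TPM required, fewer genes were tested. Then 3885 were called on both scales, with 1360 rises and 2525 falls, and 4202 were higher and 2525 lower after scaling. Why falls dropped more than rises was not tested. Against a 1.5-fold difference (limma treat), 3732 were called as deposited (531 higher and 3201 lower), 2754 after scaling (1409 higher and 1345 lower), and 1876 on both (531 rose and 1345 fell). Scaling set the balance of the deposited calls, with 4954 higher and 4180 lower after median-of-ratios scaling (54.2% higher), 4497 and 4364 after quantile normalization (50.8%), 2790 higher without the 10 most abundant genes (28.8%) and 2743 higher without mitochondrially encoded genes (28.3%). Genes not called in one direction changed sign. Under median-of-ratios scaling the differences were 0.28 for Clic6, 0.56 for Cox8a, 0.081 for Folr1, 0.013 for Igf2, 0.30 for Kcne2, 0.083 for Otx2 and 0.56 for Ttr. Under quantile normalization they were 0.035 for Clic6, 0.39 for Cox8a and 0.031 for Kcne2, while Ttr showed no difference beyond rounding error (3.6e-15). Without mitochondrially encoded genes they were 0.22 for Cox8a and 0.22 for Ttr, and without the 10 most abundant genes 0.23 for Cox8a. Array weights gave 0.011 for Cox8a. Leaving out a library gave -0.071 to 0.049 for Cox8a, -0.036 to 0.0089 for Ttr and -0.72 to 3.14 for Rps27, lowest without P0 replicate 3. The cause of these changes was not tested. The number of 3 libraries per age and the unknown depth limit the precision of genes of low TPM.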

Other observations

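How far each change had gone by P14 was computed as the share of the log2 distance between P0 and A6m that the P14 mean had covered, where 0 is the P0 mean and 1 the A6m mean. It is a description, because the same P0 and A6m libraries define the distance. Among the genes that fell, the median was 0.73 as deposited and 0.61 after scaling over 9 libraries. Among the genes that rose, it was 0.35 as deposited and 0.60 after scaling. Lists differed in this measure. The 23 respiratory chain genes that rose had a median of 0.92 as deposited and 0.91 after scaling, and the 18 secretory pathway genes 0.69 and 0.82 on the same scales. The 5 MHC class II genes that rose had -0.12 and -0.05, and the 10 interferon genes -0.43 and -0.02. These medians cover members that differ, since Ifi27 had a P14 mean of 219 TPM and H2-DMb1 one of 8.80 TPM, both between their A6m and P0 means. Falls of axoneme genes (26 genes, 0.87 as deposited and 0.83 after scaling) lay further along than those of fibrillar collagen genes (27 genes, 0.46 and 0.30).

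The balance of calls also varied with level and class of gene. In the lowest quartile of mean TPM, 10% of genes rose and 39.5% fell, and in the highest, 18.2% rose and 21.0% fell. Of 989 long noncoding genes, 91 rose (9.2%) and 312 fell (31.5%), near the 12.3% and 28.5% of all genes. Of 535 small RNA genes, 61 rose (11.4%) and 50 fell (9.35%), in libraries made with an mRNA kit. A promoter CpG ratio of at least 0.6 was found in 67.7% of 1243 protein-coding genes that rose, 69.9% of 2823 that fell and 75.7% of all 9759 with a window.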
